A study of Mus musculus with 15 samples.

Results

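Expression of 9 enzymes of glutamate metabolism and of the routes that refill or drain the tricarboxylic acid (TCA) cycle was examined in murine pancreatic ductal adenocarcinoma (PDAC) after glutamine (Gln) antagonism or Gln removal. The genes were chosen by name and were Glud1, Glul, Got1, Got2, Gpt2, Pcx, Pck2, Me1 and Idh1, which are 9 of the 55291 genes listed in each count table. All 15 RNA-seq libraries came from HY19636, a single primary PDAC line from an engineered mouse whose alleles, p53 among them, were recombined in the pancreas by Ptf1a-Cre, and its genotype was shared by every group. In 9 libraries the cells grew in 2D in DMEM with serum: 3 libraries came from control cells, 3 from cells given 25 µM DON for 24 h and 3 from cells kept without Gln for 24 h (noGln). In the other 6, the cells had been injected into the pancreas of female C57BL/6J mice, 8 to 10 weeks old and with an intact immune system, and 3 tumors came from mice given vehicle and 3 from mice given DRP-104. DRP-104 was injected at 3 mg/kg on 5 successive days, followed by a rest of 2 days, in 2 such cycles, and tumors of this model were harvested on day 21 after transplantation. DON is a Gln mimic that binds irreversibly to enzymes that use Gln, and DRP-104 is a prodrug of it.

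Gln feeds the TCA cycle in steps that these enzymes control. Gln first loses its amide nitrogen to give glutamate, and glutamate becomes α-ketoglutarate, a cycle intermediate, either through glutamate dehydrogenase (Glud1) or by handing its amino group to another keto acid through the aminotransferases Got1, Got2 and Gpt2. Refilling the cycle in this way is called anaplerosis, and pyruvate carboxylase (Pcx) offers a route from glucose instead. Pck2, Me1 and Idh1 act on carbon that leaves the cycle or its products, and Glul runs the opposite way, making Gln from glutamate and ammonia. In PDAC, a Got1 and Me1 route that turns Gln-derived aspartate into NADPH has been described.

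Values below are normalized read counts, meaning reads per gene divided by 1 factor per library, which the authors computed separately for each table. By the reads recovered from these values, the libraries held 25.2 to 48.2 M reads in culture and 16.3 to 20.7 M reads in tumors. Of the low recovered counts, 69.6% to 72.7% were even in the culture libraries and 41.9% to 46.5% in the tumor libraries. The read numbers of culture and tumors may therefore not be on the same scale. A change was called where limma's moderated test on log2(normalized count + 1), adjusted over all genes tested by Benjamini-Hochberg, gave an adjusted p under 0.05, and every fold change below is on that log2 scale. The 3 control libraries serve both the DON and the noGln contrast, so those contrasts are not independent of each other. Nothing in the labels says that the libraries of a group came from separate cultures, and the p-values measure the spread between these libraries, which may be technical. Control replicate 3 stood somewhat apart: it held the lowest of the 3 control values for 8 of the 9 genes, and results that turned on it are given with and without it. This library also held the most recovered reads, at 48.2 M against 27.1 and 27.2 M in the other controls. Scaled by depth and gene length (RPKM, defined below), it was the highest control for Glud1, Me1 and Idh1 and the lowest for the other members.

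DON changed 7 of the 9 transcripts, against a background of 68.1% of the 13556 genes tested. Gpt2, Pck2, Pcx and Got1 were higher and Idh1, Glul and Me1 lower. The 4 higher genes are read against 33.3% of all genes called higher, and the 3 lower against 34.7% called lower. Gln removal changed 8 of the 9, against 69.4% of 13390 genes: 2 were higher, where 34.5% of all genes were, and 6 lower, where 34.9% of all genes were. The values of the 2 groups did not overlap for 7 of the 9 genes under DON, beside 71.9% of all genes, and for 8 under noGln, beside 73.6%. The number of these genes called was only somewhat above the background in both contrasts and is not read as a result about them. The median size of the change in either direction was 1.15 on the log2 scale over the 9 genes under DON and 0.62 over all genes tested. Under noGln it was 0.98 over the 9 genes and 0.64 over all genes. The 9 genes were chosen with earlier results of these data known, so these sizes are described only and were not tested. The signed median was 0.05 for the 9 genes under DON beside 0.02 for all genes, and -0.90 under noGln beside 0.01.

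**Figure D1:**
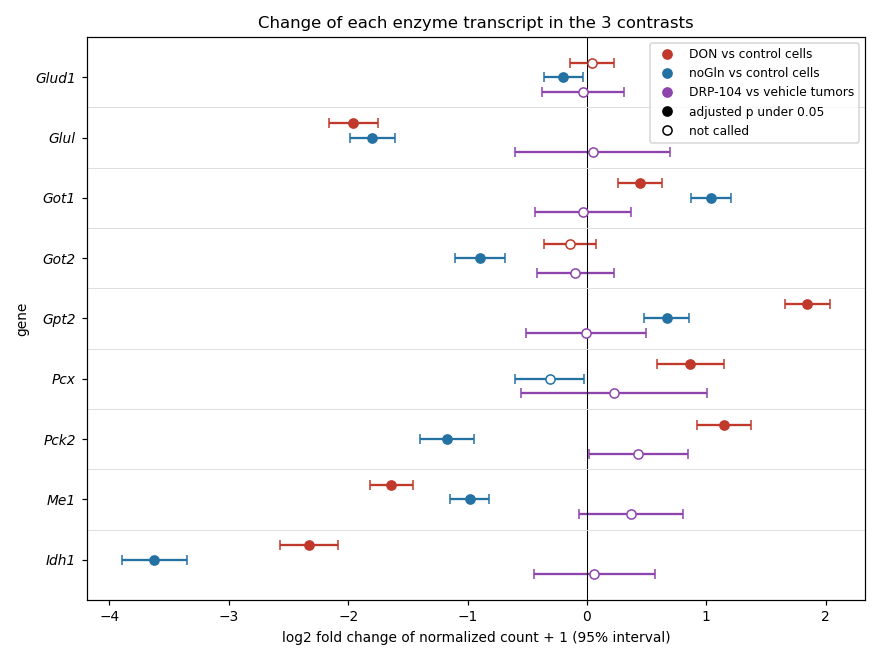
Log2 fold change (x axis) of each enzyme transcript (y axis) in the 3 contrasts, with 95% intervals from limma, 3 libraries a group; filled points passed an adjusted p of 0.05 and open points did not. Pck2 lies at 1.15 under DON and -1.17 under noGln, Glul, Me1 and Idh1 lie left of 0 in both culture contrasts, and all 9 tumor points are open.

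Glul, on chromosome 1 from 153899944 to 153909723 on the plus strand (ENSMUSG00000026473; all gene positions below are in GRCm38), encodes glutamine synthetase, the enzyme that makes Gln. Its normalized count was 10675, 10683 and 8915 in the control cells and 2676, 2499 and 2602 in the DON cells. The DON values lay far below the controls with no overlap, a log2 fold change of -1.96 ± 0.09 (SE, limma adjusted p = 5.0e-10), or 3.88-fold lower. Without Gln the 3 values were 2789, 2724 and 2741 against 10061, 10091 and 8598 in the controls as scaled in that table. That was a log2 fold change of -1.80 ± 0.09 (limma adjusted p = 2.7e-09). The transcript was therefore lower, not higher, in Gln-free medium.

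Glud1, on chromosome 14 from 34310727 to 34345144 on the plus strand (ENSMUSG00000021794), encodes mitochondrial glutamate dehydrogenase, and it varied least of the 9 in culture. Counts were 9795, 9636 and 9104 in control and 10101, 10155 and 9222 in DON cells, and the 2 groups overlapped (log2 fold change 0.05 ± 0.09, 95% interval -0.14 to 0.23, limma adjusted p = 0.65). The DON result depended on scaling: under quantile normalization the log2 fold change was 0.26 and was called (limma adjusted p = 0.0068). Without Gln all 3 values, 7978, 7726 and 7920, were below the 3 controls of 9231, 9102 and 8780, a log2 fold change of -0.20 ± 0.07 (limma adjusted p = 0.031). This call was lost when any one library other than control replicate 3 was left out, with log2 fold changes between -0.21 and -0.18 in those 5 fits, also with no filter on low counts, and under quantile normalization, where it was -0.096.

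The aminotransferases moved apart. Got1, on chromosome 19 from 43499752 to 43524605 on the minus strand (ENSMUSG00000025190), is the cytosolic aspartate aminotransferase. Its counts were 4565, 4381 and 4024 in control and 5922, 5919 and 5793 in DON cells, and all 3 DON values were higher (log2 fold change 0.44 ± 0.09, limma adjusted p = 3.7e-04). The rise was larger without Gln, with 8513, 8560 and 8218 against 4302, 4138 and 3881, a 2.05-fold difference (log2 fold change 1.04 ± 0.08, limma adjusted p = 1.4e-07).

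Got2, on chromosome 8 from 95864134 to 95888547 on the minus strand (ENSMUSG00000031672), is the mitochondrial partner of Got1 in the malate-aspartate shuttle. Under DON its counts of 8400, 8668 and 8235 lay within the control range of 7934 to 10287 (log2 fold change -0.14 ± 0.10, 95% interval -0.36 to 0.08, limma adjusted p = 0.23). Without control replicate 3 the log2 fold change was -0.26 and passed the threshold, and under quantile normalization its sign turned, to 0.06. Without Gln the counts fell to 4847, 4797 and 4631 against 9320, 9717 and 7652 in control, a log2 fold change of -0.90 ± 0.10 (limma adjusted p = 3.0e-06). Gln removal thus raised the cytosolic enzyme's transcript and lowered the mitochondrial one's. A processed pseudogene, Got2-ps1, is annotated, and reads shared with it cannot be placed with certainty.

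Gpt2, on chromosome 8 from 85492576 to 85527560 on the plus strand (ENSMUSG00000031700), is the mitochondrial alanine aminotransferase, which passes the amino group of glutamate to pyruvate and yields alanine and α-ketoglutarate. It showed the largest rise of the 9 under DON, from 1549, 1507 and 1374 to 5285, 5372 and 5264. That was 3.60-fold, with a log2 fold change of 1.85 ± 0.09 (limma adjusted p = 4.6e-10). Without Gln it rose to 2162, 2321 and 2200 against 1460, 1424 and 1325, 1.59-fold (log2 fold change 0.67 ± 0.09, limma adjusted p = 1.8e-05). Gpt2 and Got1 were the 2 members called higher in both culture contrasts.

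Pcx, on chromosome 19 from 4510472 to 4621752 on the plus strand (ENSMUSG00000024892), encodes pyruvate carboxylase, which makes oxaloacetate from pyruvate. Its counts were 840, 744 and 579 in control and 1255, 1380 and 1271 in DON cells, a log2 fold change of 0.87 ± 0.13 (limma adjusted p = 4.8e-05) with no overlap. Without Gln the 3 values of 514, 543 and 581 overlapped the controls of 792, 703 and 559 (log2 fold change -0.31 ± 0.14, 95% interval -0.61 to -0.02, limma adjusted p = 0.055). Without control replicate 3 the noGln log2 fold change was -0.45 and passed the threshold. Lrfn4, a gene on the opposite strand, lies over 3883 bases of the Pcx gene and had a mean normalized count of 2930 in culture. Whether the counting used strand is not given in the sources used here, so reads of the 2 genes there cannot be told apart. Lrfn4 itself had log2 fold changes of 0.26 ± 0.10 under DON and -0.23 ± 0.10 under noGln (limma adjusted p = 0.030 and 0.047).

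Pck2, on chromosome 14 from 55540266 to 55550017 on the plus strand (ENSMUSG00000040618), encodes the mitochondrial phosphoenolpyruvate carboxykinase, which makes phosphoenolpyruvate from oxaloacetate. It was the only one of the 9 called in opposite directions in the culture contrasts. Counts rose from 4808, 4660 and 3631 in control to 9521, 9857 and 9426 in DON cells, 2.22-fold (log2 fold change 1.15 ± 0.11, limma adjusted p = 3.4e-07). Without Gln they fell from 4531, 4401 and 3502 to 1724, 1873 and 1893, 2.25-fold lower (log2 fold change -1.17 ± 0.10, limma adjusted p = 6.2e-07). No DON value was below the highest control and no noGln value above the lowest. The cytosolic form, Pck1, was at 0 in all 9 culture libraries.

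Me1, on chromosome 9 from 86581371 to 86695953 on the minus strand (ENSMUSG00000032418), is the cytosolic malic enzyme, which makes pyruvate and NADPH from malate. Its counts fell from 14102, 13804 and 13292 to 4589, 4165 and 4480 under DON, 3.11-fold lower (log2 fold change -1.64 ± 0.08, limma adjusted p = 9.1e-10). Without Gln they fell from 13290, 13038 and 12819 to 6480, 6799 and 6541, 1.98-fold lower (log2 fold change -0.98 ± 0.07, limma adjusted p = 1.5e-07). Got1 and Me1, the first and last cytosolic steps of the aspartate-to-NADPH route, hence moved in opposite directions under both conditions. Mdh1, the cytosolic malate dehydrogenase between them, had log2 fold changes of -0.09 under DON (limma adjusted p = 0.39) and -1.05 without Gln (limma adjusted p = 3.7e-07).

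Idh1, on chromosome 1 from 65158616 to 65186500 on the minus strand (ENSMUSG00000025950), is the cytosolic NADP-dependent isocitrate dehydrogenase, which interconverts isocitrate and α-ketoglutarate. It had the largest fall of the 9 in both contrasts. Counts fell from 7135, 6547 and 7013 to 1585, 1142 and 1425 under DON (log2 fold change -2.33 ± 0.11, limma adjusted p = 5.6e-10), 5.02-fold lower. Without Gln they fell from 6725, 6184 and 6763 to 426, 561 and 627, 12.3-fold lower (log2 fold change -3.62 ± 0.13, limma adjusted p = 2.2e-10).

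Levels of different genes were compared per length, as reads per kilobase of the gene length given in the FPKM table scaled by the depth of the library (RPKM). In control cells Me1 was highest at 126 ± 3 RPKM (SD, n = 3), followed by Got2 at 111 ± 10, Glul at 109 ± 6, Idh1 at 90.6 ± 6.9 and Glud1 at 87.9 ± 1.2. The libraries of Got2 and Glul overlapped, as did those of Idh1 and Glud1. Got1 at 63.4 ± 1.4, Pck2 at 38.6 ± 3.9, Gpt2 at 12.2 ± 0.2 and Pcx at 5.23 ± 0.74 RPKM followed, each apart from the next. In DON cells Pck2 reached 94.2 ± 2.0 RPKM and Gpt2 48.7 ± 0.5, and in noGln cells Got1 was at 140 ± 2 RPKM. Glud1 was at 100.3 ± 4.7 RPKM in DON cells, above control without overlap, whereas its normalized counts in these groups overlapped. Idh1 stood at 20.1 ± 3.2 RPKM in DON and 8.0 ± 1.6 in noGln cells.

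**Figure D2:**
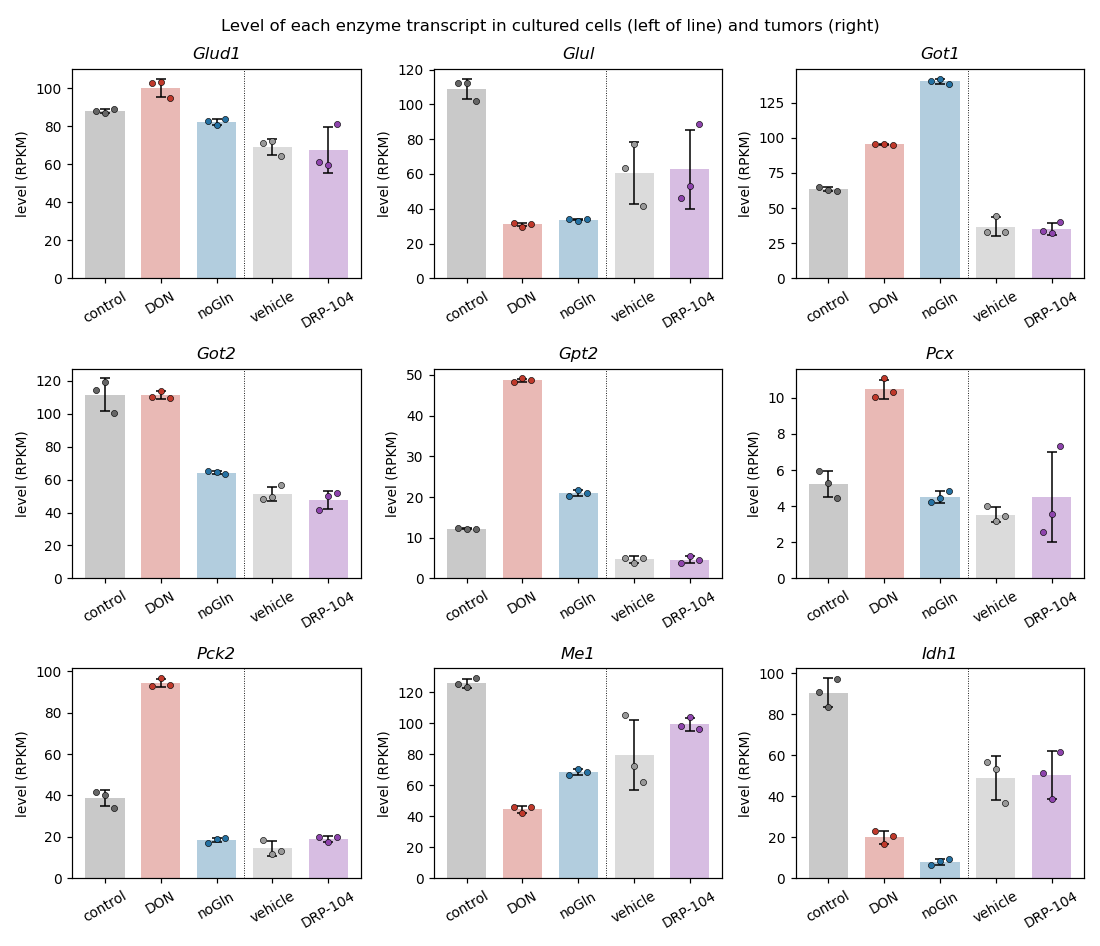
RPKM (y axis, from 0) of each enzyme transcript in the 5 groups; bars are means, error bars SD and points the 3 libraries, with cultured cells left of the dotted line and tumors right of it. DON bars stand highest for Glud1, Gpt2, Pcx and Pck2, the noGln bar stands highest for Got1, and the control bar stands highest for Glul, Me1 and Idh1.

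DON and Gln removal were also compared directly, in a fit of the 9 culture libraries on a common scale, to ask where blocking Gln use and taking Gln away differ. All 9 genes had non-overlapping values in the 2 groups, against 71.7% of all genes, and 8 of the 9 were called, against 63.3% of the 13514 genes tested. Of these, 6 were higher in DON cells, beside 31.0% of all genes, and 2 were lower, beside 32.3%. Pck2 differed most, at 9348, 9716 and 9266 in DON and 1744, 1896 and 1915 in noGln cells, 5.10-fold (log2 difference 2.35 ± 0.09, limma adjusted p = 4.6e-11). Idh1 was 2.51-fold (1.33 ± 0.13), Pcx 2.32-fold (1.21 ± 0.12) and Gpt2 2.32-fold higher with DON (1.21 ± 0.07), and Got2 was 1.72-fold higher (0.78 ± 0.09). Glud1 was 1.21-fold higher with DON (0.28 ± 0.07, limma adjusted p = 0.0026). Got1 and Me1 were lower with DON than without Gln, with log2 differences of -0.56 ± 0.07 and -0.62 ± 0.07. Glul was the exception, with values of 2628, 2463 and 2558 against 2821, 2757 and 2773. Its log2 difference of -0.13 ± 0.08 had a 95% interval of -0.30 to 0.04 (limma adjusted p = 0.17).

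**Figure D3:**
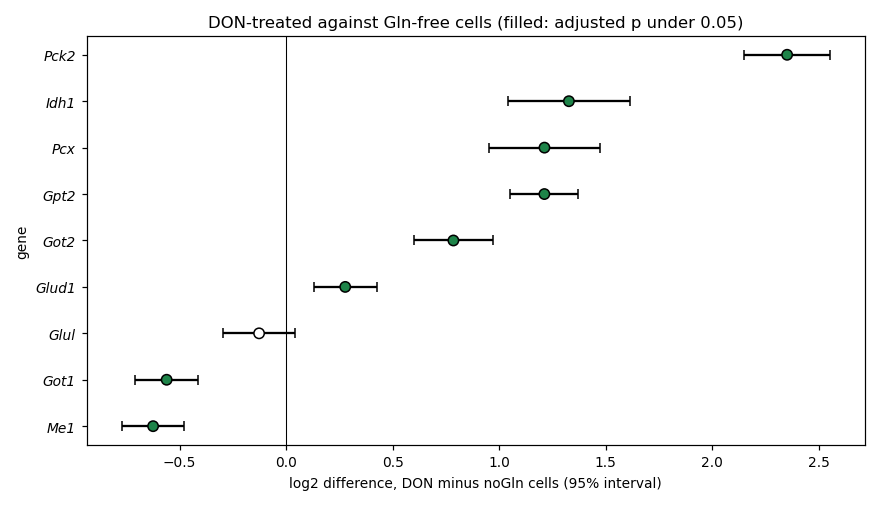
Log2 difference between DON and noGln cells (x axis, DON minus noGln) for each enzyme transcript (y axis), with 95% intervals from limma and 3 libraries a group; filled points passed an adjusted p of 0.05. Pck2 stands apart on the right at 2.35, and only the interval of Glul, at -0.13, crosses 0.

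The promoters of the members were read for 4 short motifs, in the RefSeq windows of 250 bases before to 50 after each start (GRCm38.p6, 32851 windows, both strands). All 9 genes had at least 1 window. The C/EBP-ATF letters TGATGNAA, bound by stress-response factors of that family, were in 3.97% of all windows and in those of 4.51% of genes. Among the members only the windows of Pck2 and Got1 held them. In both genes the letters lay on the strand opposite to the gene and began, read along the gene, 103 and 102 bases before the start. The stretches are shown because these 2 genes rose together under DON and parted without Gln, and capitals mark the motif, read along the gene's own strand (Pck2 chr14:55540133-55540200, plus strand; Got1 chr19:43524670-43524737, minus strand).
Pck2: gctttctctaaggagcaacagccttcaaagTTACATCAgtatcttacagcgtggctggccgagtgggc
Got1: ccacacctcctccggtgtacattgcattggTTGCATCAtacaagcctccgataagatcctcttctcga
The antioxidant response letters TGACNNNGC, found in 12.4% of all windows and for 14% of genes, were in a window of Me1, 6 bases before one of its starts. The stretch up to the motif's end (chr9:86695912-86695950, minus strand) is shown because Me1 fell in both culture contrasts.
Me1: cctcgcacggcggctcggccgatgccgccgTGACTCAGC
The E-box CACGTG, in 7.15% of windows and for 8.09% of genes, was in a window of Pcx, 248 bases before its start. The sterol response letters TCACNCCAC, in 1.24% of windows and for 1.44% of genes, were in none of the members' windows. A match is a description of these letters only, and no binding was measured.

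DRP-104 was compared with vehicle in tumors to ask how these genes stood in vivo. None of the 9 was called by limma, against 0% of the 15454 genes tested (775 genes had an unadjusted p under 0.05; edgeR's quasi-likelihood test also called 0 genes and DESeq2 called 56, none of them a member). No member had non-overlapping groups, beside 10.6% of all genes. The SE of the members' log2 fold changes ran from 0.14 to 0.34 in tumors and from 0.08 to 0.13 under DON, so that the tumor intervals were wider. In simulated tumor counts, with changes placed in genes drawn from all those tested, limma found 12.4% of 2-fold changes. A change of that size in such a gene would therefore mostly go uncalled. This share is not specific to the members, whose own 95% intervals reached a 2-fold change only for Pcx (-0.55 to 1.00 on the log2 scale). Bulk tumors hold RNA of many cell types, so fewer cells of a type and less RNA per cell cannot be told apart.

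Pck2 had the smallest unadjusted p of the 9. Its normalized count was 1145, 763 and 850 in vehicle and 1327, 1122 and 1227 in DRP-104 tumors, a log2 fold change of 0.43 ± 0.18 (95% interval 0.01 to 0.85, unadjusted p = 0.044, limma adjusted p = 0.92). The vehicle and DRP-104 tumors overlapped through vehicle replicate 1. Me1 stood at 6235, 4568 and 3872 in vehicle and 6394, 6474 and 5758 in DRP-104 tumors (log2 fold change 0.37 ± 0.19, limma adjusted p = 0.92). Pcx was at 300.3, 251 and 270 in vehicle and 213, 278 and 551 in DRP-104 tumors (log2 fold change 0.23 ± 0.34). Its mean depended on DRP-104 replicate 3, without which the log2 fold change was -0.17.

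The other 6 lay within 0.10 of 0 on the log2 scale, with limma adjusted p between 0.94 and 1.00. Gpt2, at 332, 263 and 353 in vehicle and 265, 375 and 306 in DRP-104 tumors, had a log2 fold change of -0.01 and a 95% interval of -0.51 to 0.50. Idh1 stood at 2343, 2366 and 1593 in vehicle and 2339, 1669 and 2580 in DRP-104 tumors, a log2 fold change of 0.06 with an interval of -0.45 to 0.57. Glul was at 3200, 4124 and 2192 in vehicle and 2541, 2807 and 4483 in DRP-104 tumors, and its interval ran from -0.60 to 0.70. For Got2 the log2 fold change was -0.10 with an interval of -0.42 to 0.23, for Glud1 it was -0.03 (-0.38 to 0.31) and for Got1 -0.03 (-0.43 to 0.37).

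The FPKM table of the tumors gave other signs for several members, again with none called. Its columns were assigned to the groups by their names only and could not be tied to the same tumors. Idh1 was at 46.7, 62.2 and 38.7 FPKM in vehicle and 25.1, 40.3 and 37.4 FPKM in DRP-104 tumors, a log2 fold change of -0.51. Me1 was at -0.34 and Pck2 at -0.02 on the same scale.

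The summed counts of fibroblast and of endothelial markers did not overlap between the tumor groups, where 10.6% of all single genes did not. Of the single markers in these sums, Dcn, Lum, Pdgfrb and Kdr did overlap. By staining, the paper found no significant change of cancer-associated fibroblasts in treated tumors. The summed normalized count of 7 fibroblast markers was 39031 to 82817 in vehicle and 18469 to 32268 in DRP-104 tumors, and that of 4 endothelial markers was 1868 to 2112 and 1160 to 1562. The sums of the 6 epithelial markers overlapped, at 116747 to 161328 in vehicle and 130197 to 173678 in DRP-104 tumors. Those of the 7 macrophage markers overlapped too, at 6065 to 8226 in vehicle and 3996 to 8242 in DRP-104 tumors. The T cell markers were at 53 to 98 in vehicle and 42 to 1306 in DRP-104 tumors, the highest in replicate 3. The part of these host cells in the members' tumor values was not tested. In the cultures the summed count was 121 to 1123 for the fibroblast and 1156 to 2762 for the macrophage markers. Most of these sums came from Pdgfra, at 1072 to 1115 in noGln and 449 to 606 in control cells, from Mrc1, at 1944 to 2707 in control cells, and from Cd68, at 784 to 835 in DON cells. Col1a2, Dcn, Lum and C1qb were at 0 in all 9 culture libraries and Col1a1 was at 20 to 26 in control cells, and the epithelial markers Krt8, Krt18 and Krt19 were high; their levels were lower in DON and noGln cells, where the summed count of 6 epithelial markers was 114949 to 175701 against 387215 to 496207 in control. The part of this in the members' culture values was not tested.

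The effect of DRP-104 in tumors was set against that of DON in cells in one fit of both. The difference was called for 5 of the 9 genes, against 33.1% of 15070 genes. It was positive for 3, beside 19.1% of all genes, and negative for 2, beside 14.0%. Idh1 (log2 difference of effects 2.39 ± 0.26, limma adjusted p = 2.3e-05), Me1 (2.01 ± 0.20) and Glul (2.00 ± 0.31) fell under DON and did not pass the test in tumors. Gpt2 (-1.85 ± 0.21) and Pck2 (-0.72 ± 0.21, limma adjusted p = 0.020) rose under DON and did not pass in tumors. Pcx, at -0.64 ± 0.38, was not called, but was called at -1.03 when DRP-104 replicate 3 was left out, and Got1, at -0.48 ± 0.19 (limma adjusted p = 0.068), was called in 4 of the alternative fits. The drug, the exposure and the setting all differ between the 2 effects and cannot be told apart.

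The mean tumor level lay below that of control cells for all 9 genes, with overlapping libraries for Pcx. Pck2 was at 14.5 ± 3.7 RPKM in vehicle and 19.0 ± 1.3 in DRP-104 tumors, beside 18.4 ± 1.0 in noGln cells, and these 3 groups overlapped with their neighbours. Gpt2 was at 4.65 ± 0.77 and 4.59 ± 0.89 RPKM in the tumors, below all culture groups. Idh1 at 48.9 ± 10.8 and 50.5 ± 11.7 RPKM stood between control and DON cells. Me1, at 79.9 ± 22.6 and 99.6 ± 4.2, had the highest mean of the 9 in both tumor groups as in control cells, overlapping Glud1 in vehicle tumors. These levels compare tables that were normalized separately and tissues of different makeup.

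The other genes around these enzymes were described by 5 lists, 52 genes in all. Of 45 tested, 10 were higher and 21 lower under DON, and 11 were higher and 25 lower without Gln. These counts, and those of each list below, are read against all genes tested, of which 33.3% were higher and 34.7% lower under DON, and 34.5% higher and 34.9% lower without Gln, with medians of 0.02 and 0.01 on the log2 scale. None of the 46 tested in tumors was called by limma.

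Among 5 glutaminases and glutamine transaminases, 2 were higher and 1 lower under DON, and 3 were lower without Gln, with list medians of 0.10 and -0.43 on the log2 scale. Gls2, a glutaminase, fell in both, from 568 ± 103 to 152 ± 33 (SD, n = 3) under DON and from 539 ± 93 to 155 ± 4 without Gln. Nit2, which completes the transaminase route from Gln to α-ketoglutarate, rose from 564 ± 50 to 1392 ± 120 under DON and fell without Gln, with log2 fold changes of 1.30 and -0.43.

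Of 7 tested genes among other glutamate-linked aminotransferases and glutamate-forming enzymes, 3 were higher and 2 lower under DON, and 3 higher and 3 lower without Gln, with list medians of 0.23 and -0.27. Bcat1, the cytosolic branched-chain aminotransferase, rose from 753 ± 31 to 2753 ± 175 under DON and from 716 ± 20 to 2406 ± 206 without Gln (log2 fold changes 1.87 and 1.74). Its mitochondrial partner Bcat2 fell in both, with log2 fold changes of -0.84 and -0.62. Gpt, the cytosolic alanine aminotransferase and partner of Gpt2, was at 0.23 under DON (limma adjusted p = 0.18) and fell by 0.97 on the log2 scale without Gln. The mitochondrial Gpt2 was called higher in both contrasts, whereas Gpt was called only without Gln, as lower (limma adjusted p = 3.3e-04).

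The malate-aspartate shuttle and mitochondrial carriers had the lowest medians of the 5 lists in culture. Of 9 tested, 1 was higher and 5 lower under DON, and 2 higher and 7 lower without Gln, with list medians of -0.91 and -1.05 on the log2 scale beside 0.02 and 0.01 over all genes. Ucp2, a mitochondrial carrier that exports C4 metabolites, fell from 3346 ± 505 to 196 ± 15 under DON and from 3177 ± 446 to 147 ± 16 without Gln. Mdh2 rose slightly under DON (log2 fold change 0.26), and Slc25a22, a glutamate carrier, rose by 0.58 on the log2 scale without Gln.

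Paralogs and other routes into or out of the cycle gave 3 higher and 5 lower of 8 tested in each culture contrast, where 68.1% of all genes under DON and 69.4% without Gln were called in either direction, with list medians of -0.64 and -0.44. Idh2, the mitochondrial counterpart of Idh1, fell from 5034 ± 612 to 2345 ± 168 under DON and from 4780 ± 528 to 948 ± 156 without Gln. Its log2 fold changes of -1.10 and -2.34 had the order of those of Idh1. Me2, a mitochondrial malic enzyme, fell by less than Me1, with log2 fold changes of -0.56 and -0.50, and Me3 was under the filter on low counts, with a mean of 4.6 in control cells. Pccb, a subunit of the propionyl-CoA carboxylase, had log2 fold changes of -1.65 and -1.69, and Mpc2, a subunit of the mitochondrial pyruvate carrier, rose by 0.73 and 0.64.

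Of 16 TCA cycle enzymes, 1 was higher and 8 lower under DON, and 2 higher and 7 lower without Gln, with medians of -0.15 and -0.20 on the log2 scale beside 0.02 and 0.01 over all genes. Fh1, fumarate hydratase, fell from 2711 ± 272 to 1373 ± 171 under DON and from 2575 ± 228 to 1407 ± 99 without Gln. Dld, the dihydrolipoamide dehydrogenase subunit shared by the pyruvate and α-ketoglutarate dehydrogenases, rose from 3017 ± 407 to 4383 ± 258 under DON and from 2871 ± 418 to 6531 ± 410 without Gln.

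**Figure D4:**
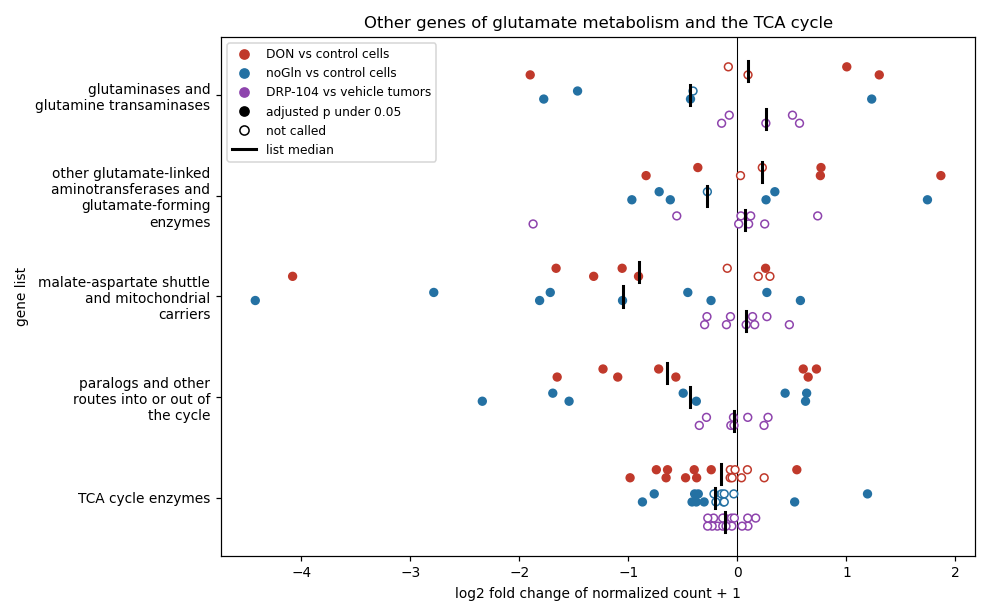
Log2 fold change (x axis) of each tested gene in 5 lists around the enzymes (y axis), for the 3 contrasts; filled points passed an adjusted p of 0.05 and black ticks are list medians. The medians of the carriers lie left of 0 in both culture contrasts, at -0.91 and -1.05, with Ucp2 farthest at -4.08 and -4.42 and some carriers right of 0, and every tumor point is open.

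For each member the genes with the most similar pattern over the 9 culture libraries were listed by Pearson's r of log2(normalized count + 1), among 10431 genes with a mean of at least 100. These 9 libraries form 3 groups, so that r follows the group means, and no test was made. Ctsa was nearest to Pck2 (r = 0.998), with log2 fold changes of 1.00 under DON and -1.09 under noGln, and Washc3 was next. Myc was nearest to Got1 (r = 0.997), with log2 fold changes of 1.03 and 2.49, followed by Mafk. For Glul the nearest were Ldha (r = 0.999) and Suv39h1, and for Idh1 they were Scd2 (r = 0.996) and Nsdhl (r = 0.995), enzymes of fatty acid desaturation and cholesterol synthesis. Me1 was nearest to Tspan13 and Itgb4, Gpt2 to Pip4k2c and Ctns, Pcx to Nop53 and Washc1, and Glud1 to Slc25a5 and Ifrd2. Ndufv3 was among the 2 nearest to Got2. Between 92 genes for Glud1 and 756 for Glul had an r of at least 0.95, so that such likeness was common in these libraries.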

How the data were processed

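Bulk RNA-seq was analysed in 15 libraries of 5 groups of 3. Per the labels and the study's methods, the authors aligned reads with HISAT2 (STAR 2.5 is listed as well) and used DESeq2. The deposited culture and tumor tables hold a signal per gene, namely counts divided by 1 size factor per library, and whole reads were recovered from them for at least 99.9946% of values (tolerance 0.0051 reads). The authors' FPKM table covers tumors and gives GRCm38 positions, whereas the labels list GRCm39. Its columns share names with the count table but the values did not pair, so it was used by group. The correlation of deviations was at most 0.0864 between same-named columns. The highest between any columns, 0.4573, was between a DRP-104 column of counts and a vehicle column of FPKM. The groups of the FPKM columns therefore rest on their names alone. The tables' own fold changes and p-values were not used. Control columns of the culture tables are named as vehicle tumors are, and were taken as control cells because those tables hold the culture contrasts. The control reads were identical in both culture tables for 55291 genes.

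Log2(value + 1) of genes with a mean of at least 10 was tested with limma 3.58.1 (trend, R 4.3.3), with 3 libraries a group and Benjamini-Hochberg adjustment. DON against noGln was fitted on all 9 culture libraries, and the difference of the DRP-104 and DON effects on 12. Alternatives used edgeR 4.0.16 and DESeq2 1.42.0 on recovered reads, other pseudocounts, filters, quantile normalization and single libraries left out. The limma test was tried on simulated counts first. For DRP-104 against vehicle it found 12.4% of 2-fold and 61.2% of 4-fold changes, and 13.3% of its calls were unchanged genes. For DON against control it found 83% and 99.0%, and 4.2% of its calls were unchanged genes. With 3 libraries a group an exact permutation test cannot go below p = 0.1 and was not used. The 9 genes were always named. From each list, the genes named were those with the largest called rise and fall in each culture contrast, together with Idh2, Me2, Me3, Pck1 and Gpt, and some of the genes so chosen are not reported here. Mdh1, Lrfn4 and the single marker genes were named after their values were seen. Members and lists were chosen with earlier results of these data known. The intervals given are from the spread between libraries, which includes counting error.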

Additional observations from a re-analysis of the deposited data

Results flagged for a closer look

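For 5 genes the effect of DRP-104 in tumors and that of DON in cells differed by a test of the difference itself, on the log2 scale as the tumor effect minus the culture effect. The difference was 2.39 for Idh1, 2.01 for Me1, 2.00 for Glul, -1.85 for Gpt2 and -0.72 for Pck2, all past an adjusted p of 0.05 by limma. For Idh1, Me1, Glul and Gpt2 the tumor log2 fold changes were 0.06, 0.37, 0.05 and -0.01, beside -2.33, -1.64, -1.96 and 1.85 in culture. Pck2 was at 0.43 in tumors, where it did not pass the test (limma adjusted p = 0.92) and stood at -0.025 in the FPKM table, and at 1.15 in culture. No difference was tested between the DRP-104 and the noGln effect.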

How the results depend on the processing

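The number of the 9 genes called stayed within 1.5 times the reported one in every alternative run. It was 7 to 8 for DON, 7 to 9 for noGln, 0 for the tumors, 8 for DON against noGln and 5 to 7 for the difference of effects. No called gene changed sign in any alternative. Quantile normalization moved the median of all genes under DON from 0.02 to 0.13 on the log2 scale, and Got2 under DON then stood at 0.061, below that median, while Glud1 was called at 0.26. In the difference of effects Got2 was at -0.11 under quantile normalization. In tumors the signs of uncalled genes turned often. In the FPKM table Glul was at -0.22, Got2 at 0.056, Gpt2 at 0.24, Pcx at -0.14, Pck2 at -0.025, Me1 at -0.34 and Idh1 at -0.51. Under quantile normalization Glud1 was at 0.027 and Got1 at 0.0038 in tumors, and Gpt2 was at 0.00029 by edgeR and 0.0035 by DESeq2. Leaving out single tumors gave log2 fold changes of -0.14 to 0.049 for Glud1, -0.20 to 0.26 for Glul, -0.13 to 0.13 for Got1, -0.14 to 0.11 for Gpt2, -0.17 to 0.52 for Pcx and -0.12 to 0.25 for Idh1. In the difference of effects the range was -0.19 to 0.0032 for Glud1 and -0.025 to 0.16 for Got2. The cause was not tested.

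With the replicate number of the labels as a replicate block, 0 of the 9 genes were called in tumors and 8 for DON against noGln, as without it. Both block fits used 6 libraries, and for DON against noGln the same 6 without a block, an alternative chosen after seeing the data, gave 8 as well. Over all genes the block moved the calls of DON against noGln from 9207 to 9237. Same-numbered libraries did not deviate together (correlations -0.36 to 0.04 in tumors and -0.03 to 0.08 in culture), so the samples share only a number. No paired analysis was possible for the contrasts with control cells because the control columns carry no number that can be tied to the labels. Low read numbers of the culture libraries were mostly even, and edgeR on halved reads, also chosen after seeing the data, gave 7, 8 and 8 for DON, noGln and DON against noGln. By recovered reads the tumor libraries were the shallower ones, at 16.3 to 20.7 M reads. With the mostly even culture counts, it is not known whether the depths of culture and tumors compare. The parts of depth and of the spread between tumors in the absence of calls were not tested.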
